A study of Anguilla anguilla with 45 samples.

Results

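Transcript levels in the caudal fin and in the liver of European eels (Anguilla anguilla) exposed to cadmium (Cd) were compared on 2-colour microarrays. The comparison used 5 fin arrays and 5 liver arrays, 10 of the 45 arrays in the series. It covered the contigs with at least 3 values in each tissue, which were 849 of 992; a contig is an assembled transcript sequence, named in the files by a number alone. Both groups were laboratory eels held in water with 4 µg/L Cd, and each tissue had arrays of fish 45, 47, 48, 49 and 50. The unexposed laboratory eels, fish 6 to 10, gave 5 fin and 5 liver arrays that are set beside them. On every array the sample was hybridised with 1 common reference, a pool made from 30 wild eels from Certes (15 from each of 2 years) and labelled as liver. The sources used here give neither the exposure time nor the age of the eels. Unexposed fins are labelled as coming from a laboratory contamination experiment and unexposed livers from the cadmium experiment, with the same fish numbers. The labels do not say that one number marks one animal, nor that arrays of a group came from separately kept fish, so p-values measure the spread between arrays.

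The caudal fin holds skin, connective tissue, bony rays, vessels and nerves, and a piece of it can be taken from a living fish. The liver makes plasma proteins and bile, stores nutrients and metabolises foreign compounds. Cadmium is a toxic metal without a known use in fish. It accumulates in liver and kidney, where metallothioneins, small proteins rich in cysteine, bind it. None of the contig numbers matched an entry of the gene table used here, so neither metallothionein nor the markers of liver, skin, muscle or blood could be looked up. The tissue labels were therefore set against whole array profiles. In a piece of tissue, fewer cells of a type and less RNA per cell cannot be told apart.

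The values are log2 ratios, read here as sample over reference. That direction is an assumption: it is not stated with the values, the dyes in the labels do not settle it, and it was not checked against intensities. With the opposite direction every sign of a ratio or difference below would turn, and higher in fin would read lower. A value of 1 is a ratio of 2 to 1, and 0 is the level of the reference. Each array was centred on a median of 0 by the authors, so a difference between tissues is relative to the median contig of the array.

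The tissue labels and the profiles went together in 9 of the 10 arrays. Across contigs, the fin arrays of fish 47, 48, 49 and 50 correlated with one another at 0.687 on average (0.544 to 0.761 over 6 pairs) and with unexposed fins at 0.595. They correlated with Cd livers at 0.122 and with unexposed livers at 0.130. The Cd livers correlated with one another at 0.514 (0.417 to 0.613 over 10 pairs), with unexposed livers at 0.417 and with unexposed fins at 0.131. The fin array of fish 45 correlated with the other 4 Cd fins at -0.046 on average, with the Cd livers at -0.021, and with any of the other 44 arrays of the series at -0.093 to 0.067. It resembled neither tissue, and results are given with and without it. Contigs are not independent replicates, so these correlations describe the arrays.

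Fish 45 also stood apart in the spread of its fin ratios. The median absolute log2 ratio, a measure of the distance from the reference, was 1.72 on its fin array. It was 0.43 in fish 47, 0.84 in fish 48, 0.64 in fish 49 and 0.69 in fish 50. The Cd livers lay at 0.90 in fish 45, 0.74 in fish 47, 0.72 in fish 48, 0.90 in fish 49 and 0.73 in fish 50. With all arrays no difference in this distance was detected (fin 0.86 ± 0.50, liver 0.80 ± 0.09, SD, n = 5 each; exact two-sided permutation p = 0.929). Without the fin array of fish 45 the fins lay nearer to the reference, at 0.65 ± 0.17 (SD, n = 4), by less than the test could tell from the spread (exact two-sided permutation p = 0.159; 4 against 5 arrays cannot give less than 0.016). The livers were thus not measurably nearer than the fins to a reference that is labelled as liver.

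**Figure D1:**
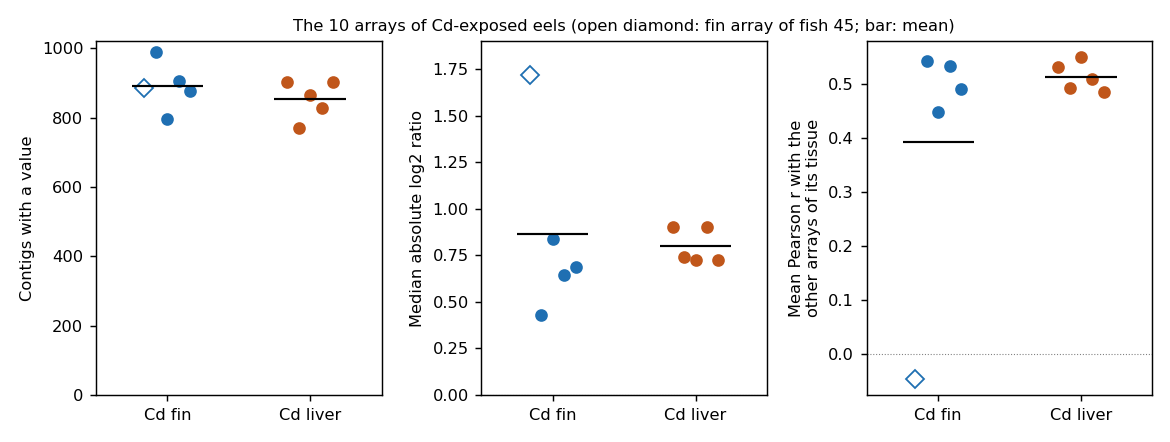
The 10 arrays of Cd-exposed eels, one point per array, with the group mean as a bar: contigs with a value (left), median absolute log2 ratio (middle) and mean Pearson correlation with the other arrays of the same tissue (right). The fin array of fish 45, drawn as an open diamond, lies at a median absolute ratio of 1.72 and a mean correlation of -0.046, while its number of contigs lies among those of the other fins.

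The number of contigs with a value did not separate the tissues. The fin arrays held 886 (fish 45), 988 (fish 47), 796 (fish 48), 906 (fish 49) and 876 (fish 50). The liver arrays held 903, 769, 865, 829 and 903 in the same order. The means were 890 ± 68.8 and 854 ± 56.5 (SD, n = 5 each; exact two-sided permutation p = 0.405), and the groups overlapped.

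Of the 143 contigs left out, 106 had under 3 liver values but at least 3 fin values, 16 had under 3 fin values but at least 3 liver values, and 21 had under 3 in both. A value on every fin array with none or 1 in liver was found for 6 contigs, and the converse for 1. All 10 values were present for 568 contigs. The 96 contigs just inside the minimum, with 3 values on the sparser side, had a median absolute difference between tissues of 1.61, and the 77 just outside it, with 2 values, had 1.64. The contigs with all values had 0.81.

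The central question was which transcripts differed between fin and liver of Cd-exposed eels. In fin 49 contigs were higher than in liver, 5.77% of the 849 tested, and 88 were lower, 10.4%, together 16.1% (limma, Benjamini-Hochberg adjusted p under 0.05). The 49 higher contigs differed by 1.03 to 6.01 on the log2 scale, with a median of 2.53, a 5.78-fold difference. The 88 lower contigs differed by -0.81 to -7.85, with a median of -1.46, a 2.74-fold difference. Over all 849 contigs the median difference was 0.07 and the median absolute difference 0.92. Differences of more than 2 made up 36 of the 49 higher contigs and 23 of the 88 lower ones. The share of such differences over all 849 contigs is not given here, so these counts only describe the lists.

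Without the fin array of fish 45 the count rose to 258 contigs, 32% of the 806 then tested. Of these, 102 were higher in fin, 12.7%, and 156 lower, 19.4%. Of the 137 contigs called with all arrays, 134 were among them. The 102 higher contigs had a median difference of 1.91 (0.67 to 9.65), and the 156 lower contigs one of -1.25 (-0.67 to -7.85). Differences of more than 2 made up 47 of the 102 and 34 of the 156. With the fin array of fish 45 kept, leaving out any other array lowered the count. It was 73 without the fin and 90 without the liver of fish 49, and 100 to 131 without another array. With the fin array of fish 45 left out, leaving out a further array gave 149 (fin of fish 49) to 236.

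The balance of directions depended on the centring of the arrays. When each array was centred on the 422 contigs that all 20 laboratory arrays measured, 80 contigs were higher and 55 lower in fin, against 49 and 88 as deposited, and the median difference over all contigs moved from 0.07 to 0.32. Without the fin array of fish 45, centring on contigs measured on all 19 remaining arrays gave 155 higher and 97 lower, against 102 and 156. More lower than higher contigs is therefore a statement about the deposited centring.

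**Figure D2:**
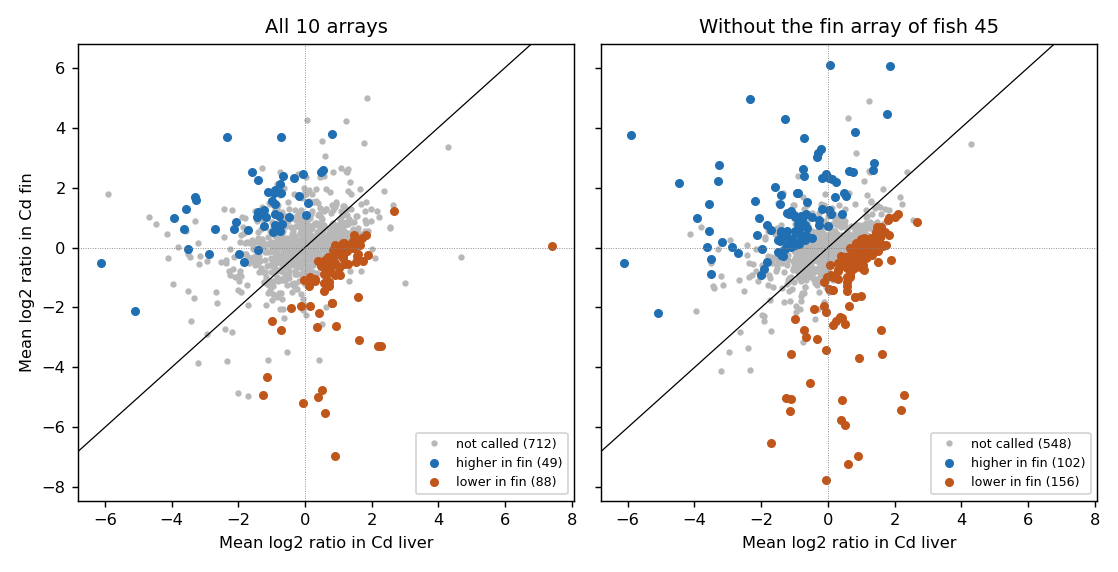
Mean log2 ratio of each tested contig in Cd liver (horizontal) and Cd fin (vertical), with all 10 arrays (left) and without the fin array of fish 45 (right). Blue points are contigs called higher in fin (49 and 102), orange points are contigs called lower (88 and 156), grey points were not called, and the diagonal marks equal ratios.

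Many contigs separated the tissues array by array. Every fin value lay above every liver value in 69 contigs, 8.13% of those tested, and below in 104, 12.2%. This held for 32 of the 49 contigs called higher and 71 of the 88 called lower. Without the fin array of fish 45 it held for 118 contigs above, 14.6%, and 162 below, 20.1%.

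Of the contigs higher in fin, contig_19268 separated the tissues on every array. Its log2 ratios in fin were 3.82 in fish 45, 2.28 in fish 47, 4.60 in fish 48, 2.72 in fish 49 and 5.06 in fish 50. In liver they were -1.75, -0.50, -0.29, -0.43 and -0.60 in the same order. The lowest fin lay well above the highest liver, and here fish 45 did not stand apart in fin. The difference was 4.41 ± 0.66 (SE, limma adjusted p = 0.0014) and 4.38 ± 0.71 without the fin array of fish 45 (limma adjusted p = 0.00093). Unexposed fins had 2.54, 5.48 and 2.78 in fish 6, 7 and 8, and unexposed livers had 0.10 and -1.05 in fish 7 and 10, with 2 liver values too few for a test.

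The other higher contig, contig_14206, had a wide spread in liver. Its fin ratios were 0.62 in fish 45, 0.80 in fish 47, 3.05 in fish 48, 1.82 in fish 49 and 0.15 in fish 50. Its liver ratios were -0.39, -8.41, 1.33, -5.06 and -5.34 in the same order. The liver of fish 48 lay within the range of the fins, and 3 livers lay far below. The difference was 4.86 ± 1.41 (SE, limma adjusted p = 0.031). The call ended without the fin array of fish 48 or 49 or the liver array of fish 47, 49 or 50 (differences of 3.65 to 4.73), and in a fit of the Cd arrays alone (limma adjusted p = 0.088). In unexposed eels the difference was 4.01 ± 1.70 (limma adjusted p = 0.114).

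Of the contigs lower in fin, contig_19495 was far below the reference in 4 fins. Its fin ratios were -4.37 in fish 47, -5.00 in fish 48, -4.98 in fish 49 and -5.32 in fish 50, but 3.27 in fish 45. Its liver ratios were 2.27 in fish 45, 2.95 in fish 47, 1.85 in fish 48, 2.36 in fish 49 and 1.95 in fish 50. Fish 45 alone kept the groups from being apart, and its fin lay above all livers. The difference was -5.56 ± 1.18 (SE, limma adjusted p = 0.0050) with all arrays and -7.19 ± 0.51 without that array (limma adjusted p = 2.07e-08). In unexposed eels the fins lay at -5.66 to -4.74 and the livers at -1.70 to 1.56, a difference of -5.80 ± 1.17 (limma adjusted p = 0.0022). That error rests on the spread shared with the Cd arrays. In the fit without the fin array of fish 45 it was 0.48 (limma adjusted p = 1.19e-07).

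The other lower contig, contig_1168, was also below the reference in 4 fins. Its fin ratios were -3.27 in fish 47, -4.98 in fish 48, -3.66 in fish 49 and -2.85 in fish 50, and 1.75 in fish 45. Its liver ratios were 0.27, 1.59, 0.33, 0.75 and 1.79 in fish 45, 47, 48, 49 and 50. Here the fin of fish 45 lay within the range of the livers, and the other 4 fins lay below every liver. The difference was -3.55 ± 0.92 (SE, limma adjusted p = 0.017) and -4.63 ± 0.61 without that array (limma adjusted p = 3.70e-05). A fit of the Cd arrays alone ended the call with fish 45 kept (limma adjusted p = 0.068). In unexposed eels the difference was -5.26 ± 0.91 (limma adjusted p = 0.00071). In the fit without the fin array of Cd fish 45 its error was 0.58 (limma adjusted p = 4.17e-06).

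**Figure D3:**
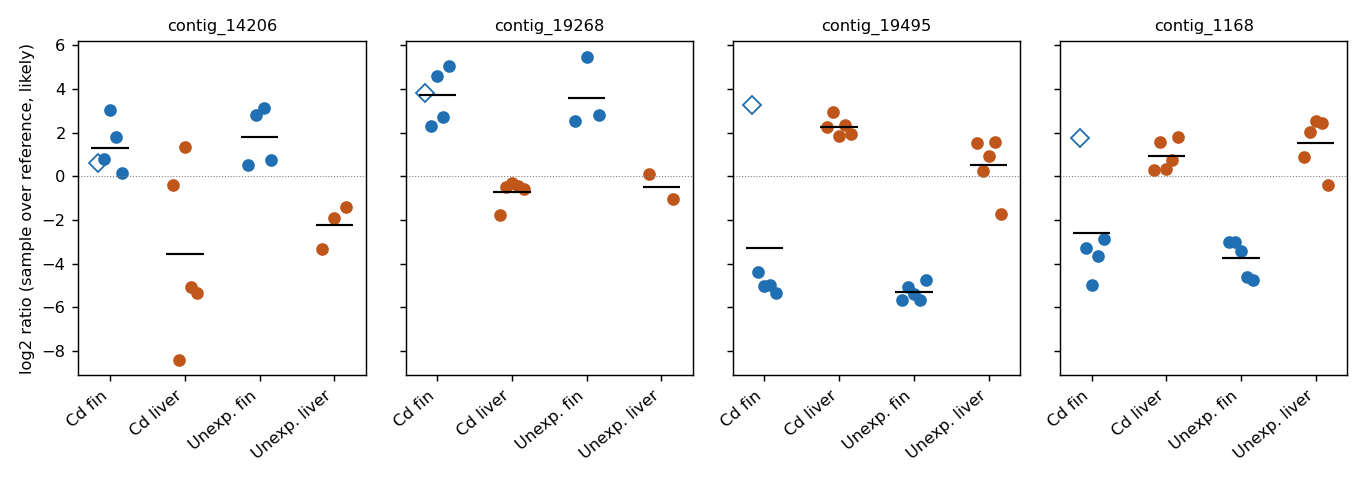
Log2 ratio of 4 contigs on each array of Cd-exposed and unexposed eels, fins in blue and livers in orange, with group means as bars and the fin array of Cd fish 45 as an open diamond. In contig_19495 and contig_1168 the diamond lies at 3.27 and 1.75 while the other 4 Cd fins lie at -2.85 or below.

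Most called contigs lay on opposite sides of the reference in the tissues, which choosing contigs by a large difference favours. The share on opposite sides over all contigs tested is not given here, so these counts only describe the lists. Without the fin array of fish 45, 70 of the 102 higher contigs had a fin mean above 0 and a liver mean below it, 18 were above 0 in both and 14 below in both. Of the 156 lower contigs, 99 had a fin mean below 0 and a liver mean above it, 40 were above 0 in both and 17 below in both. The fin was the tissue farther from the reference in 46 of the 102 and 57 of the 156, and in 41.3% of all 806 contigs tested. The median ratio of the higher contigs was 0.92 in fin and -0.96 in liver, and that of the lower contigs -0.38 in fin and 0.84 in liver. With all arrays 37 of the 49 higher and 62 of the 88 lower contigs lay on opposite sides.

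The fin array of fish 45 carried most of the wider spread seen in fin. Without it the median SD of a contig over arrays was 0.50 in fin and 0.47 in liver, and the fin had the larger SD in 52.2% of the 806 contigs. With that array the median SD in fin was 1.14 against 0.49 in liver, and the fin had the larger SD in 73.4% of the 849 contigs. Of the 630 contigs with 5 fin values, fish 45 was an outlier by Dixon's ratio at the 95% level in 182, or 28.9%, and each of the other fins in at most 7. In liver, where 707 contigs had 5 values, the number ran from 6 for fish 50 to 27 for fish 47.

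At the contigs that separated the other fins from the livers, single values of the fin of fish 45 scattered widely. It lay within the range of the other 4 fins in 9 of the 92 higher contigs measured on it and in 20 of the 127 lower ones. It was above the liver mean in 56 of the 92 and below it in 74 of the 127. Its mean log2 ratio was 0.18 over the higher contigs, where the other fins had 0.84 to 1.40 and the livers -1.30 to -0.82. Over the lower contigs it had 0.40, against -1.26 to -0.67 in the other fins and 0.63 to 0.90 in the livers. Over all its contigs that array had a median of 0 and quartiles of -1.17 and 2.58. With such a spread these means describe the array, and no level between the tissues is read from them. Of the 806 contigs tested without it, 717 had a value on it, and 18.5% of those lay within the range of the other 4 fins. The other fins lay within the range of the remaining 3 in 30.6% (fish 48) to 67.4% (fish 47) of their contigs, a narrower range to fall in.

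Whether the difference between fin and liver itself depended on Cd was tested against the unexposed eels, whose arrays were all separate from the Cd arrays. Unexposed fins and unexposed livers carry different experiment labels, so a difference between experiments, if there was one, could not be told apart from Cd. In unexposed eels 69 contigs were higher in fin, 9.01% of 766 tested, and 61 lower, 7.96%, together 17.0% (limma). The spread per contig in this fit came from all 20 laboratory arrays, the Cd fin array of fish 45 included. A fit of the unexposed arrays alone gave 177 of the 766, with 82 higher and 95 lower. For a fin-liver difference that itself differed between Cd-exposed and unexposed eels, 0 of 730 contigs passed (0.00%, limma adjusted). Before adjustment 64 had a p under 0.05, and with array weights 1 contig passed. Without the Cd fin array of fish 45, 0 of 714 passed (0.00%), 80 had an unadjusted p under 0.05, and the smallest limma adjusted p was 0.096. The median standard error of such a difference of differences was 0.78 log2 with fish 45 and 0.57 without it. Differences several times that size also failed the adjusted test: contig_14520, named after its values were seen, had -2.74 ± 0.78 (SE, limma adjusted p = 0.295). A count of 0 therefore leaves such differences undetected with these arrays. The median of this difference over all contigs was -0.25 with fish 45 and -0.32 without it, and -0.04, with fish 45, when arrays were centred on the contigs that all 20 measured.

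The tissue differences ran in the same direction in Cd-exposed and unexposed eels for most called contigs. Over all contigs tested in the 4 groups the direction was the same in 72.6% of 730. Without the Cd fin array of fish 45 it was the same in 74.5% of 714. Of the 49 contigs higher in Cd fin, 43 were tested in unexposed eels; all 43 were higher in fin there too, and 18 passed the test, 41.9% of those 43 and 27.3% of the 66 contigs higher in unexposed fin that were tested in Cd. Of the 88 lower contigs, 84 of 87 tested were lower in unexposed fin, and 33 passed, 37.9% of those 87 and 58.9% of the 56 lower in unexposed fin. Without the Cd fin array of fish 45, 36 higher contigs were shared, 41.9% of the 86 tested in unexposed eels and 54.5% of the unexposed list of 66. The 46 shared lower contigs were 29.9% of the 154 tested in unexposed eels and 86.8% of the unexposed list of 53. In 0 contigs, with or without that array, were the calls in opposite directions. Across contigs the differences correlated at 0.648 (Spearman 0.615, 730 contigs) with all Cd arrays and at 0.762 (Spearman 0.708, 714 contigs) without that array. All arrays share the reference, and contigs are not independent, so these values are a description.

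The median sizes were taken over lists that changed with the fin array of fish 45, so they do not show how sizes changed at the same contigs. With that array, the 43 higher contigs tested in both had a median difference of 2.5 in Cd-exposed and 1.68 in unexposed eels. The 87 lower contigs had -1.45 and -0.95. Without the Cd fin array of fish 45, the medians were 1.72 and 1.63 for 86 higher contigs and -1.25 and -0.94 for 154 lower ones. The lists were chosen on the Cd values, which can make those the larger. For contig_19495 the difference of differences was 0.24 ± 1.65 (SE, limma adjusted p = 0.957), and -1.39 ± 0.69 without that array (limma adjusted p = 0.433). For contig_1168 it was 1.71 ± 1.28 (limma adjusted p = 0.650), and 0.63 ± 0.83 without that array (limma adjusted p = 0.768). For contig_14206 it was 0.85 ± 2.19 (limma adjusted p = 0.871).

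**Figure D4:**
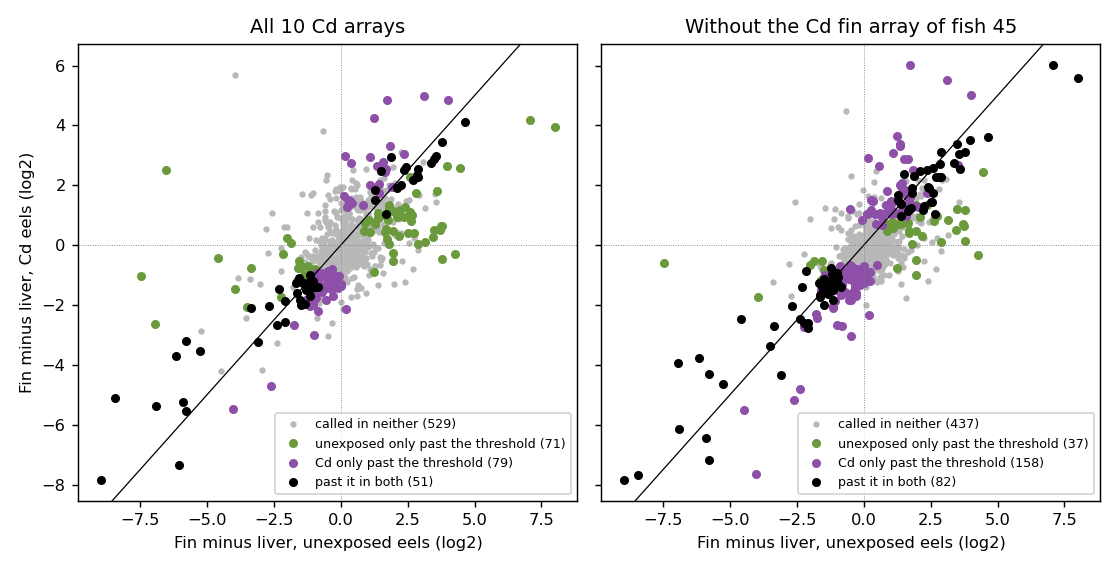
Fin minus liver difference of each contig in unexposed eels (horizontal) and in Cd-exposed eels (vertical), on the log2 scale, with all 10 Cd arrays (730 contigs, left) and without the Cd fin array of fish 45 (714 contigs, right). Black points passed the threshold in both, purple in Cd-exposed eels and green in unexposed eels, grey in neither, and the diagonal marks equal differences.

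The contigs called without the fin array of fish 45 were then read on arrays that had not chosen them. Unexposed fins had a mean log2 ratio of 0.98 ± 0.07 (SD, n = 5) over the 102 higher contigs, and unexposed livers -0.88 ± 0.36, with no overlap between the tissues. Over the 156 lower contigs unexposed fins had -0.63 ± 0.25 and unexposed livers 0.65 ± 0.17, again without overlap. The unexposed arrays entered the estimate of the spread in the fit but not the difference. Each mean covers only the contigs with a value on the array. Of the 102 higher contigs these were 79 to 102 in unexposed fins and 58 to 101 in unexposed livers.

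Of the 5 other fin groups of the series, 3 had means on the side of the Cd fins. Eels given polychlorinated biphenyls (PCBs) in the diet at 300 ng/g had 1.59 ± 0.54 over the higher and -0.51 ± 0.46 over the lower contigs. Wild eels of Certes had 1.12 ± 0.21 and -1.02 ± 0.11, and wild eels of the Garonne 1.45 ± 0.13 and -0.55 ± 0.20 (SD, n = 5 each). These means cover different subsets of the lists. Of the 102 higher contigs, Garonne arrays measured 34 to 56, Certes arrays 63 to 102 and 300 ng/g arrays 26 to 101. The array with 26, of fish 33, had 2.51. Eels given PCBs at 50 ng/g had -0.10 ± 0.41 and 0.27 ± 0.61, and wild eels of the Gironde 0.02 ± 0.69 and 0.32 ± 0.67, with single arrays at -0.47 to 1.22 over the higher contigs. In these last 2 groups the arrays of a group had little in common: an array's mean correlation with the others of its group was -0.060 to 0.116 in the 50 ng/g fins and 0.029 to 0.331 in the Gironde fins, against 0.405 to 0.822 in the other 3 groups. Single 50 ng/g fins had -0.72 to 0.27 over the higher contigs and -0.32 to 1.28 over the lower ones. Why the means of these 2 groups lay near 0 was not tested. At contig_19495 the 50 ng/g fins had 0.18 ± 0.79 and Certes fins -5.47 ± 0.53 (SD, n = 5 each), while the 1 Gironde fin with a value had -5.47. At contig_1168 the 50 ng/g fins had 1.60 ± 0.77 and Certes fins -2.80 ± 0.59 (SD, n = 5 each), and that Gironde fin had -3.97. At both contigs this 1 Gironde fin was thus on the side of the Cd fins of fish 47 to 50. It was the Gironde array with the lowest mean correlation, 0.029, and the highest mean over the higher contigs, 1.22. At contig_19268 it had no value, and the 3 measured Gironde fins lay at -2.43 to -0.95. The Cd livers lay there at -1.75 to -0.29, the Cd fins at 2.28 to 5.06 and 4 of the 50 ng/g fins at -1.21 to 0.24. At contig_14206 the 4 measured Gironde fins lay at -0.43 to 0.58, overlapping both Cd tissues.

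**Figure D5:**
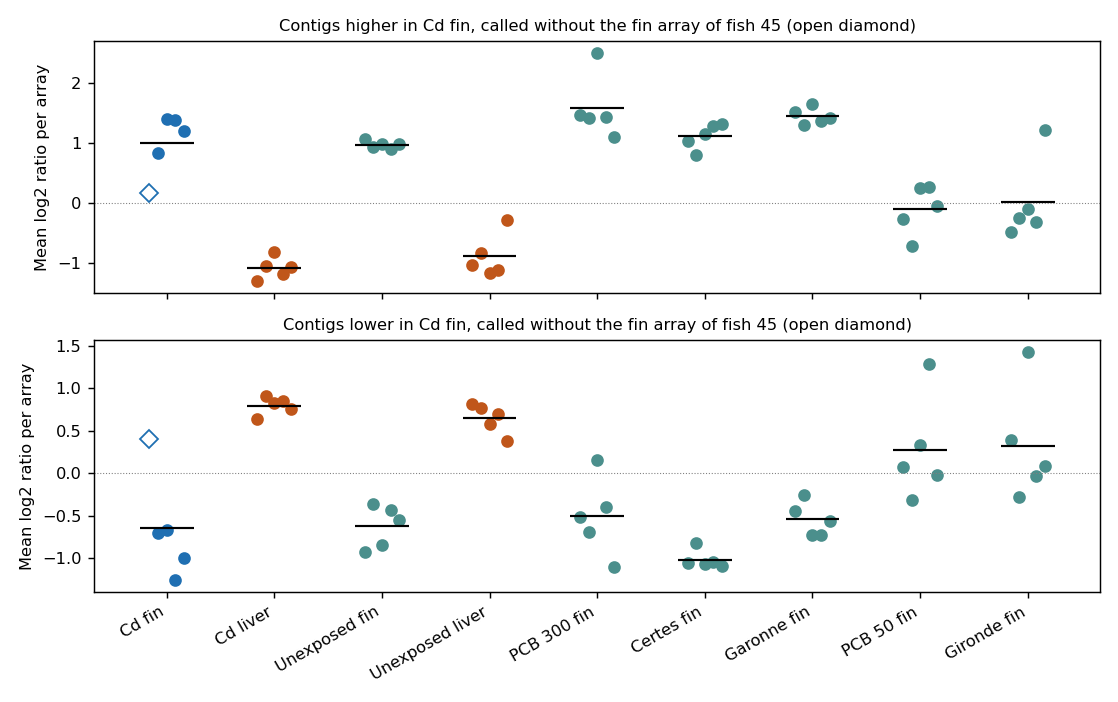
Mean log2 ratio per array over the 102 contigs higher (top) and the 156 contigs lower (bottom) in Cd fin than in Cd liver, called without the fin array of fish 45, which is the open diamond at 0.18 and 0.40. Points are arrays and bars group means, with the diamond counted in the Cd fin bar; livers are orange, Cd fins blue and other fins green. Each point covers only the listed contigs with a value on that array.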

How the data were processed

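The values are the authors' deposited log2 ratios of 992 contigs on 45 arrays, with a median of 0 on every array. Per the labels, samples were labelled with Cy3 and the common reference with Cy5; the sources used here do not give the background correction, spot filter or averaging. A scanner table of 180 value columns was not used, because its slide and sample numbers appear in no sample label; slides, each with 1 array there, could not be tested as batches. Missing values, 12.1% on the 10 Cd arrays, stayed missing. For arrays, the number of arrays limits the precision.

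Groups and fish numbers came from the sample titles. A linear model with the means of the 4 laboratory groups (20 arrays) was fitted per contig in limma 3.58.1 under R 4.3.3 (lmFit, eBayes). Tests were two-sided and needed 3 values in each group compared; p was adjusted by Benjamini-Hochberg over all contigs tested, and calls were made below 0.05. Single values per array were compared by exact permutation tests (scipy 1.17.1). The fitting was tested on simulated data. The lowest correlation between 2 Cd arrays was -0.088, so no ratio was turned.

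The contigs, lists and tests were chosen with earlier results of these data known. Named contigs are the 2 with the largest difference in each direction among those with all 10 values that passed with and without the fin array of fish 45. The alternatives were left-out arrays, a block, other samples, minimums, weights and normalizations.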

Additional observations from a re-analysis of the deposited data

Results flagged for a closer look

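Of 23 sets of 4 or 5 arrays examined, 3 held an array far from the others by Dixon's ratio, where chance gives about 1 in 20. All 3 were of fish 45. The sets share arrays and the named contigs were chosen on these data, so no excess is read from the count. The mean correlation of the fish 45 fin array with the other Cd fins was -0.046, against 0.448 to 0.542 for the others. The means of the others include their correlation with that array, and without it they were 0.617 to 0.735. The ratio of contig_19495 on the fish 45 fin array was 3.27, against -5.32 to -4.37 in the other Cd fins. The liver of fish 45 had -1.75 for contig_19268, against -0.60 to -0.29 in the other Cd livers.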

How the results depend on the processing

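The count of contigs that differed between Cd fin and Cd liver, 137 as reported, ran from 73 to 258 when 1 array was left out, the highest without the fin of fish 45. It was 48 with the fish number as a replicate block, 69 in a fit of the Cd arrays alone, 373 with array weights, 217 with quantile normalization and 239 with arrays scaled to one spread. Without the fin of fish 45, where it was 258, leaving out a further array gave 149 to 236, the block gave 141, and the other 7 settings stayed within 1.5 times. That result and the turning of the fish 45 fin ratios, which gave 168, were added after seeing the data. Turning them ended the call of contig_19268, at 2.89. In unexposed eels the 130 contigs became 80 with the block and 239 with array weights, and 96 to 154 without 1 array. The difference of the differences passed in 1 contig with array weights and in 0 under the 17 other settings. Deviations of equally numbered fin and liver arrays correlated at -0.083 to 0.066 in Cd-exposed and -0.187 to 0.167 in unexposed eels. Such correlations cannot tell whether equal numbers mark one animal, since 2 tissues of an animal need not deviate alike. If they do mark one animal, the fit without the block ignores the pairing, and the lower counts with it apply. The distance from the reference and the number of contigs with a value passed the test under no setting. For these 2 measures the block setting could not have passed, since 5 pairs cannot give a p under 0.05. The cause of these changes was not tested.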

Other observations

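Contigs measured on all 20 laboratory arrays lay higher in Cd liver than in Cd fin. Their median log2 ratio was 0.20 to 0.27 on the 5 Cd liver arrays and -0.19 to 0.07 on the 5 Cd fin arrays, without overlap. In unexposed eels it was -0.08 to 0.32 in liver and -0.03 to 0.26 in fin, with overlap. These medians are what the centring on shared contigs removed.

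contig_13165, named after its values were seen, was the 1 contig whose fin-liver difference passed as differing between Cd-exposed and unexposed eels when arrays were weighted (-2.79 ± 0.53, SE, limma adjusted p = 0.035). Its mean log2 ratios were 0.02 in Cd fin, 0.28 in Cd liver, 0.74 in unexposed fin and -1.20 in unexposed liver, on 5 arrays each. With equal weights the difference was -2.20 ± 0.92 (limma adjusted p = 0.512).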
